A study of Mus musculus with 15 samples.

Results

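The axon guidance ligands and receptors were the 68 genes, of 35976 in the deposited table, whose symbols belong to the ephrins and Eph receptors, the semaphorins with the plexins and neuropilins, the Slits and Robos, and the netrins with Dcc and the Unc5 receptors. The families were chosen with earlier results of these data known, and within them every gene was taken by its symbol. By role 34 were ligands and 34 receptors. Nuclear RNA was sequenced from the ventral tegmental area (VTA), a midbrain region rich in dopamine neurons, in 15 samples of male mice aged 8 to 12 weeks. All were heterozygous for the DAT-Cre allele (B6.SJL-Slc6a3tm1.1(cre)Bkmm/J), which puts Cre recombinase under the dopamine transporter gene Slc6a3. All had the virus AAV5-DIO-KASH-HA in the VTA, which lets cells with Cre carry an HA tag on the nucleus, followed by 14 days for its expression and 7 days of lever training for food. Each sample combined tissue of 2 mice, so replicates were pools and p-values measure the spread between pools. Nuclei with the tag, called dopaminergic here, came from mice after food training (n = 4), from mice after food training and cocaine (maintenance, n = 3), and from mice after food training, cocaine and home-cage abstinence (n = 4). Cocaine was self-administered at 0.3 mg/kg per infusion for 5 days, then 10 days at 1.0 mg/kg per infusion, and abstinence lasted 21 days. Nuclei without the tag, called non-dopaminergic here, came from food-trained mice (n = 4). That fraction takes in neurons and glia of every other kind and any dopaminergic nucleus that the virus did not reach. The later stages differed from food training in cocaine, catheter surgery and time together, and these cannot be told apart.

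Axon guidance molecules steer growing axons by attraction or repulsion at the growth cone, and many stay expressed in adult neurons, where they act on synapses and spines. Ephrins on a cell surface bind Eph receptor tyrosine kinases on another cell, semaphorins signal through plexins with neuropilins as co-receptors, Slits repel axons through Robo receptors, and netrin-1 attracts them through Dcc and repels them through Unc5 receptors. In the embryonic midbrain, Slit with Robo1 and Robo2, netrin-1 with Dcc, and ephrin-A with Epha5 are known to shape the paths of dopaminergic axons to the forebrain.

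Sequencing depth ran from 25813697 to 59046618 counts per library. The label of the sorted nuclei was checked with marker genes, given as summed CPM, which are counts scaled to a common library total with TMM factors. The 6 dopamine neuron markers summed to 6410 to 12200 CPM in the food-trained dopaminergic libraries and to 322 to 512 CPM in the non-dopaminergic ones, and all 6 passed the test as higher. Oligodendrocyte, astrocyte and microglia markers were present in both fractions at lower sums in the dopaminergic one, and their values stand beside the lower members. The labels call the untagged fraction non-dopaminergic neurons, while oligodendrocyte markers reached 9630 to 23100 CPM in it. Some libraries stood apart. Food-trained dopaminergic replicate 3 had the lowest depth and the most members at 0 counts (13, against 5 to 12 in the other dopaminergic libraries and 0 to 1 in the non-dopaminergic ones). The 3 maintenance libraries and non-dopaminergic replicate 2 had the steepest negative slopes of log2 CPM on the GC content of transcripts, between -0.0379 and -0.0225 per percent GC, against -0.0166 to 0.0324 in the other 11 libraries. Of the 68 members, 49 had counts in every dopaminergic library and 67 in every non-dopaminergic library. For 16 members a dopaminergic library held 0 counts while another held over 100 in the same population. Efna4 was at 0 in all 11 dopaminergic libraries and was too low to test.

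Promoter windows are shown for 5 of the members that passed the test between the populations, 3 that were higher and 2 that were lower, and for Epha8, which passed between stages. RefSeq windows on GRCm38.p6, of 300 bases each with 250 before and 50 after the annotated start, were found for 58 members (74 windows). Capitals mark matches on either strand to 4 motifs: the GC box (GGGCGG), a monomer site of NR4A receptors (AAAGGTCA), a bicoid-type site (TAATCC) and a SOX core (ACAAAG). The SOX core ends with the letters AAAG, with which the NR4A site begins, and a capital run longer than a motif holds overlapping matches. The first 3 windows belong to receptors that were higher in dopaminergic nuclei: Epha5 (chr5:84417333-84417632, minus strand), Epha4 (chr1:77515039-77515338, minus strand) and Unc5c (chr3:141465314-141465613, plus strand).
Epha5: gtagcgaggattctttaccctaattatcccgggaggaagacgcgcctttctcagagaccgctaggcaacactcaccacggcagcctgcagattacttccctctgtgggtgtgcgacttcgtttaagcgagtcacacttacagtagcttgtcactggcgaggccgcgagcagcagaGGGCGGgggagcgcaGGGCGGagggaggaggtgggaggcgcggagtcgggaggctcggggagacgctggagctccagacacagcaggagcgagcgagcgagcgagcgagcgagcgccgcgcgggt
Epha4: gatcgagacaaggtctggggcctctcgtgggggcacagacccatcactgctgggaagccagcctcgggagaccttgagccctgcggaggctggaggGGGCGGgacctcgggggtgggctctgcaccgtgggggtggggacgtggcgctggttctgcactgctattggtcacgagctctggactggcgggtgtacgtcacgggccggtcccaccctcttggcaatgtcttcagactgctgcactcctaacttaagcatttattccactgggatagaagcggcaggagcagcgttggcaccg
Unc5c: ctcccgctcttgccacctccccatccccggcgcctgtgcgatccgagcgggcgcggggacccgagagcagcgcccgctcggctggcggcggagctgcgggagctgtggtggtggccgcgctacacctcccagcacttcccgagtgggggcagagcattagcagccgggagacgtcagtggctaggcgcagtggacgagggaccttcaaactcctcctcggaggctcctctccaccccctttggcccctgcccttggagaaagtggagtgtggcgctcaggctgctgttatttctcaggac

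The next windows belong to plexins that were lower in dopaminergic nuclei, Plxnb1 (chr9:109095186-109095485, plus strand) and Plxnb3 (chrX:73756853-73757152, plus strand), and to Epha8 (chr4:136956767-136957066, minus strand).
Plxnb1: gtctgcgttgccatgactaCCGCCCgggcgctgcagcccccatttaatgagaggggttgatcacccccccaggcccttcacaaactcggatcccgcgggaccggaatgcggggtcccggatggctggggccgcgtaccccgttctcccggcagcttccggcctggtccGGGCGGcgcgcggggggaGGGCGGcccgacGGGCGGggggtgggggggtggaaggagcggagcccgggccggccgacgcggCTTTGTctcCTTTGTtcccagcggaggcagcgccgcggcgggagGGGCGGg
Plxnb3: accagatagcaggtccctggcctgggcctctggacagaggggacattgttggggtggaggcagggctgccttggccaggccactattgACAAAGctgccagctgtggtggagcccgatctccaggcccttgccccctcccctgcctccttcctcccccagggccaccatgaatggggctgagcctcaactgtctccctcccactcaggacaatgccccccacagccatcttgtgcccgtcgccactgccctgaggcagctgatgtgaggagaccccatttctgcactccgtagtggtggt
Epha8: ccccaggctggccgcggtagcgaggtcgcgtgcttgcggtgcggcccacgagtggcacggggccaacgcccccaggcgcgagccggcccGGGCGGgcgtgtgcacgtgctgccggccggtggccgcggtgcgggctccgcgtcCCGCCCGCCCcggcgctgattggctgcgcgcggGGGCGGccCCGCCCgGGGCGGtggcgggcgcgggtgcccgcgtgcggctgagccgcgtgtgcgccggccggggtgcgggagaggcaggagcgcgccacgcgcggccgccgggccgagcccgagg

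As a group, the members' windows were rich in GC, with a median of 64.3% against 52.7% over all 32851 windows. The GC box occurred in 71.6% of the members' windows and in 35.7% of all windows. The Epha8 window was at 84.3% GC with 6 GC boxes, Plxnb1 had 5, Epha5 had 2, Epha4 had 1, and Plxnb3 and Unc5c had none. The NR4A site was in 0 of the 74 windows (1.5% of all windows), the bicoid-type site in 2.7% (7.1% of all) and the SOX core in 13.5% (18.7% of all). Windows were found for 6 of the genes called higher in dopaminergic nuclei, of which 3 held a GC box and 0 a SOX core. They were found for 4 of the genes called lower, of which 2 held a GC box and 2, Plxnb1 and Plxnb3, a SOX core. The windows shown for Epha5, Plxnb1 and Plxnb3 lie wholly inside the annotated genes, so they belong to internal starts. A match says only that the letters occur.

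Within the dopaminergic nuclei of food-trained mice, Eph receptors of the A class were the most abundant members when CPM was divided by transcript length in kb, which allows levels of different genes to be compared. Epha5 led with 101 ± 14.9 CPM per kb (SD, n = 4), followed by Epha6 with 65.6 ± 8.74, Epha4 with 61.3 ± 13.8 and the transmembrane semaphorin Sema6d with 46.6 ± 16.5. Epha6, Epha4 and Sema6d were not apart by more than their spread. The fifth place of Epha10, with 30.9 ± 25.6 CPM per kb, rested on replicate 3, where it stood at 321 CPM against 69.3, 72.8 and 113 CPM in the other libraries. Epha10 encodes an Eph receptor whose kinase domain is inactive. Ntn1 held rank 6 with 28.8 ± 11.5 CPM per kb, while in non-dopaminergic nuclei it held rank 50 with 3.32 CPM per kb. In the non-dopaminergic nuclei the leading members were the ephrin-B ligand Efnb3 (67.0 CPM per kb) and the semaphorin co-receptor Nrp1 (40.8), ahead of Epha5 (39.9).

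The comparison of dopaminergic with non-dopaminergic nuclei after food training asked how the sorted populations differ. Netrin-1, its receptors Dcc and Unc5c, the Slit receptors Robo1 and Robo2, and the ephrin receptors Epha4, Epha5 and Epha6 were higher in dopaminergic nuclei. Plxnb1, Plxnb3, Sema6a, Efnb3, Epha2 and Robo4 were lower. Of the 67 members tested with edgeR's quasi-likelihood test, 14 (20.9%) passed a Benjamini-Hochberg adjusted p under 0.05, against 12.8% of all 19786 genes tested. The share of members called higher was 11.9% (8 genes), where the share over all genes was 3.63%. The share called lower was 8.96% (6 genes), where the share over all genes was 9.17%. With at least 10 counts required in every library, which removes Epha2, Robo4 and Plxnb3 before testing, 9 members were higher and 3 lower, and over all genes 916 were higher and 727 lower, against 719 and 1815 without that rule. The split of the called members also turned with limma-voom (7 higher and 11 lower, with 892 and 3374 over all genes), without dopaminergic replicate 4 (7 and 9, with 715 and 3013) and without the 2 libraries that stood apart, dopaminergic replicate 3 and non-dopaminergic replicate 2 (7 and 9, with 1084 and 2229). Receptors made up 7 of the 8 genes called higher and 4 of the 6 called lower. The median log2 fold change was 0.01 over the members and -0.21 over all genes. These medians depended on the setting. They were 0.255 and 0.049 with at least 10 counts in every library, -0.114 and -0.63 with limma-voom, and -0.192 and -0.603 with the replicate number as a block. The groups did not overlap for 12 members that were higher (6.87% of all genes had no overlap in that direction) and for 10 that were lower (19.1% of all genes). With the replicate number as a block, 10 members passed, 6 higher and 4 lower and 9 of them among the 14, while 413 genes were higher and 362 lower of 775 that passed in all. In bulk nuclei a lower value can come from fewer nuclei of a type or from less RNA in each, and these cannot be told apart.

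**Figure D1:**
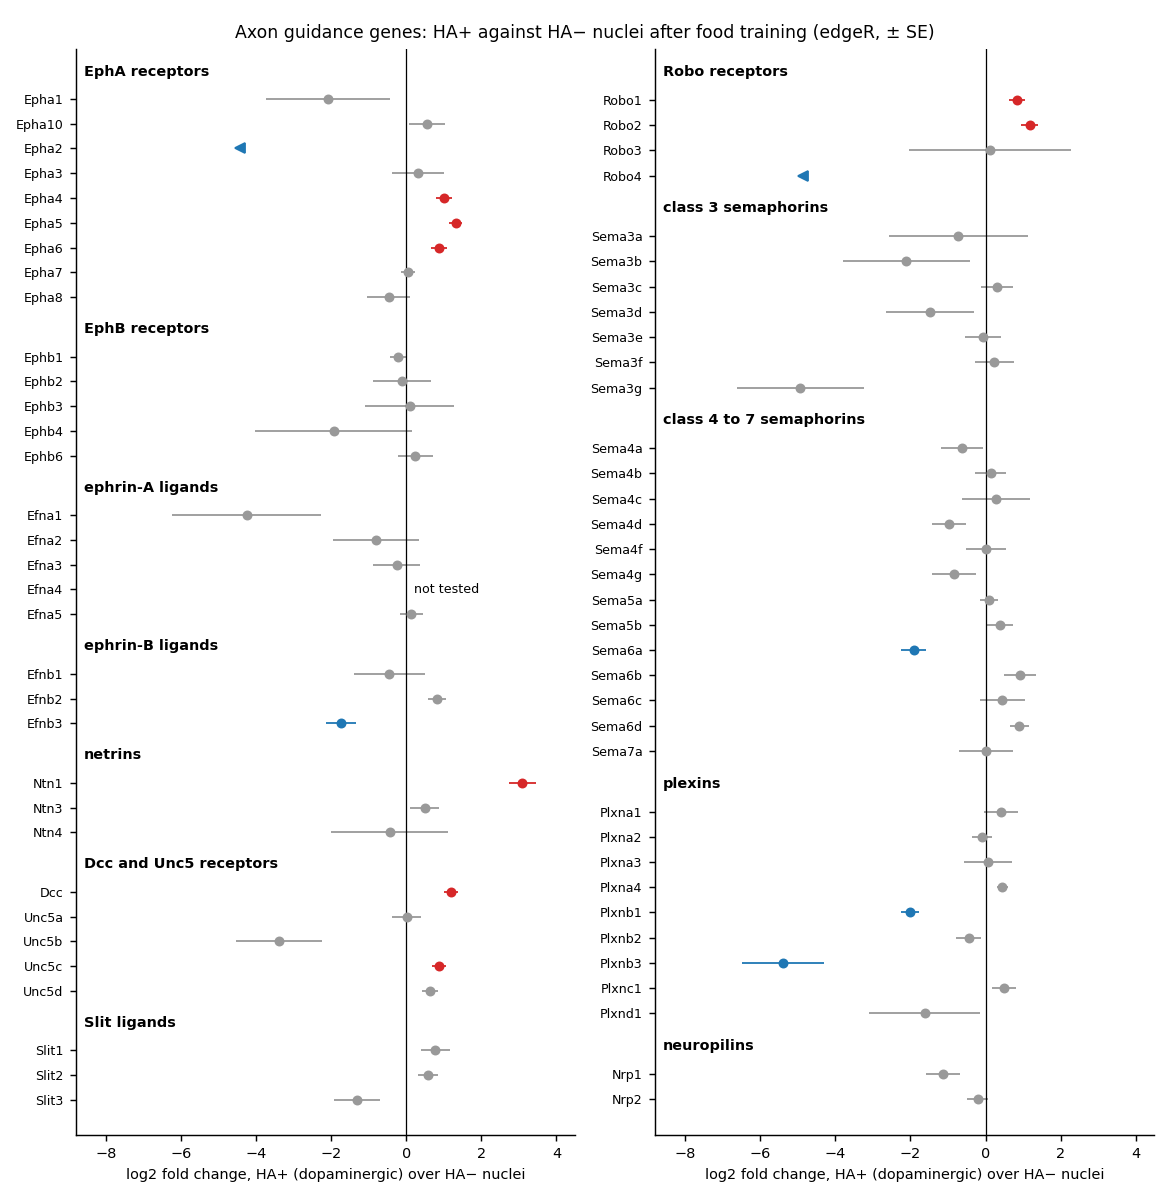
Log2 fold change of each member in HA-positive (dopaminergic) over HA-negative nuclei of food-trained mice, by family, with bars of 1 SE. Red points passed as higher (8 genes) and blue ones as lower (6 genes), grey ones did not pass, and triangles are lower bounds for Epha2 and Robo4, which had 0 counts in all 4 dopaminergic libraries.

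In the netrin pathway a ligand and 2 of its receptors were higher together. Ntn1 (chr11:68209364-68386826, like all gene positions here on GRCm38.p6) encodes netrin-1, a secreted cue. It stood at 107, 119, 247 and 205 CPM in dopaminergic nuclei and at 21.1, 12.1, 24.1 and 20.6 CPM in non-dopaminergic nuclei. Every dopaminergic library lay well above every non-dopaminergic one. The log2 fold change was 3.09 (SE of 0.36 and adjusted p = 0.00302 from edgeR), the largest among the members called higher. Dcc, the attractive netrin receptor, stood at 178, 202, 232 and 261 CPM in dopaminergic nuclei, against 89.9, 79.8, 98.1 and 110 CPM in non-dopaminergic nuclei. The groups did not overlap, and Dcc was higher by 1.18 in log2 (SE of 0.19 and adjusted p = 0.0067 from edgeR). Unc5c (chr3:141465564-141834924), a receptor that mediates repulsion, stood at 152, 164, 152 and 119 CPM against 63.6, 80.5, 89.3 and 81.0 CPM, again without overlap. Its log2 fold change was 0.87 (SE of 0.18 and adjusted p = 0.0111 from edgeR), and with the replicate block the adjusted p was 0.0572. Its relative Unc5d had a log2 fold change of 0.63 (adjusted p = 0.0899) and Unc5a one of 0.01 (0.995). Unc5b was at 0 to 9.54 CPM in dopaminergic nuclei, against 40.0 to 60.7 CPM in non-dopaminergic nuclei without passing (-3.39 ± 1.14 in log2, SE, with adjusted p = 0.0949). The other netrins, Ntn3 and Ntn4, did not pass either (adjusted p = 0.519 and 0.905). The summed level of the 3 netrin genes was 220 ± 54.3 CPM in dopaminergic nuclei, against 55.4 ± 14.2 CPM in non-dopaminergic nuclei (SD, n = 4 each).

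Of the Slit and Robo genes the receptors Robo1 and Robo2 were higher, Robo4 was lower, and Robo3 and the 3 Slits did not pass. Robo2 (chr16:73891976-75447443) stood at 201, 239, 158 and 295 CPM in dopaminergic nuclei, against 87.8, 89.6, 90.8 and 120 CPM in non-dopaminergic nuclei. All dopaminergic libraries were above the other group, and the log2 fold change was 1.18 (SE of 0.23 and adjusted p = 0.00818 from edgeR). Robo1 (chr16:72027518-73047491) stood at 126, 146, 115 and 180 CPM against 62.3, 73.2, 84.6 and 94.0 CPM, also without overlap. It was higher by 0.83 (SE of 0.21 and adjusted p = 0.0322 from edgeR). This call was close to the threshold: the adjusted p was 0.0639 with the replicate block, 0.0533 with limma-voom, 0.0563 with no filter on low counts, 0.0583 without dopaminergic replicate 2, 0.06 without dopaminergic replicate 4, and 0.0899, 0.0756 and 0.0586 without non-dopaminergic replicates 1, 2 and 3. Slit2, a ligand of both receptors, stood at 165, 154, 104 and 116 CPM in dopaminergic nuclei, against 94.9, 57.3, 81.9 and 123 CPM in non-dopaminergic nuclei, and the groups overlapped (0.57 ± 0.26 in log2, SE, with adjusted p = 0.23). Slit1 had a log2 fold change of 0.77 (adjusted p = 0.261) and Slit3 one of -1.32 (adjusted p = 0.229). Robo4, the Robo receptor of blood vessels, had 0 counts in all 4 dopaminergic libraries and 3.02, 1.18, 2.22 and 2.77 CPM in the non-dopaminergic ones. Against a floor of 3 counts per library, which covers counting error only, it was at least 29.2-fold lower (edgeR adjusted p = 0.0067, and 0.159 with the replicate block). Robo3 was at 0 in 3 of 4 dopaminergic libraries and at 8.74 CPM in replicate 3, which was above the 0.601 to 3.42 CPM of the non-dopaminergic ones (0.11 in log2, adjusted p = 0.986).

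Among the Eph receptors the most abundant A-class members were the ones that were higher. Epha5 (chr5:84054761-84417818), a receptor for ephrin-A ligands, stood at 612, 741, 878 and 728 CPM in dopaminergic nuclei, against 281, 304, 294 and 289 CPM in non-dopaminergic nuclei. The non-dopaminergic libraries were tightly grouped below the lowest dopaminergic one. The log2 fold change was 1.32 (SE of 0.17 and adjusted p = 0.00552 from edgeR). Epha4 (chr1:77367182-77515107), which binds ephrins of both classes, stood at 263, 434, 459 and 395 CPM against 151, 206, 204 and 197 CPM. Its groups did not overlap, and it was higher by 1.01 (SE of 0.22 and adjusted p = 0.0141 from edgeR). Epha6 (chr16:59641433-60610911) stood at 274, 234, 298 and 225 CPM against 105, 119, 183 and 149 CPM, without overlap, and was higher by 0.86 (SE of 0.22 and adjusted p = 0.0299 from edgeR). The Epha6 call was lost with the replicate block (adjusted p = 0.0552), with limma-voom (0.0897), without dopaminergic replicate 1 (0.0578), without non-dopaminergic replicate 1, 2 or 4 (0.0788, 0.0718 and 0.0681), and without the 2 libraries that stood apart, dopaminergic replicate 3 and non-dopaminergic replicate 2 (0.0798). Epha10 was not called (0.56 ± 0.49 in log2, SE, with adjusted p = 0.572), and without dopaminergic replicate 3 its log2 fold change was -0.17. Epha2 (chr4:141301221-141329384), a receptor best known from epithelia, had 0 counts in the 4 dopaminergic libraries and 2.49, 1.10, 1.86 and 1.36 CPM in the others. It was at least 21.6-fold lower (edgeR adjusted p = 0.0067), with an adjusted p of 0.17 with the replicate block and 0.0761 in a fit of all 15 libraries. The bound holds for the food-trained libraries alone, since Epha2 reached 5.43 CPM in a dopaminergic library at maintenance. Exons of annotated antisense genes cover 2.0% of the exon bases of Epha6, 2.7% of Plxnb1 and 0.6% of Unc5c, and whether counting used strand is not given in the sources used here. No B-class receptor passed, with adjusted p from 0.595 for Ephb1 to 0.979 for Ephb3. The 9 EphA genes together summed to 1711 ± 283 CPM in dopaminergic nuclei, against 891 ± 65.5 CPM in non-dopaminergic nuclei, while the 5 EphB genes summed to 249.8 ± 70.6 and 253 ± 67.4 CPM.

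Of the ephrins, which bind these receptors, 1 passed as lower and 0 as higher with edgeR. Efnb3 (chr11:69554092-69561150), a transmembrane ephrin, stood at 49.8, 39.4, 69.7 and 98.9 CPM in dopaminergic nuclei, against 245, 93.6, 237 and 278 CPM in non-dopaminergic nuclei. It overlapped through non-dopaminergic replicate 2, the library with a GC slope like that of the maintenance libraries, which lay under the highest dopaminergic one. Efnb3 was lower by 1.75 on the log2 scale (-1.75 ± 0.40 in log2, SE, and adjusted p = 0.0186 from edgeR). The adjusted p was 0.0544, 0.0522 and 0.053 without non-dopaminergic replicate 1, 3 or 4. Efnb2 went the other way without passing, at 47.3, 71.1, 54.5 and 65.0 CPM against 29.9, 27.7, 29.2 and 45.9 CPM (0.82 ± 0.25 in log2, SE, with adjusted p = 0.0651). Its groups did not overlap, and the adjusted p was 0.0135 with DESeq2, 0.0444 with upper quartile factors, 0.0358 without non-dopaminergic replicate 4 and 0.0495 without dopaminergic replicate 1. The ephrin-A ligands did not pass. Of these, Efna5 was the most abundant in dopaminergic nuclei at 48.1 to 142 CPM, against 70.2 to 101 CPM in non-dopaminergic nuclei.

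Among semaphorins and their receptors the few calls were lower, in 2 of 9 plexins and 1 of 13 class 4 to 7 semaphorins. Of the 7 class 3 semaphorins and 2 neuropilins 0 were called, and 9.17% of all genes were called lower. Plxnb1 (chr9:109093849-109119915), a receptor for Sema4d, stood at 19.9, 12.6, 15.4 and 18.2 CPM in dopaminergic nuclei, against 67.1, 54.8, 68.7 and 72.4 CPM in non-dopaminergic nuclei. The groups were far apart, with a log2 fold change of -2.02 (SE of 0.24 and adjusted p = 0.00325 from edgeR). Plxnb3 (chrX:73756556-73772510), known from oligodendrocytes, stood at 4.20, 0, 0.845 and 2.33 CPM against 94.8, 50.3, 92.5 and 72.8 CPM. It was lower by 5.40 on the log2 scale (-5.40 ± 1.10 in log2, SE, and adjusted p = 0.0104 from edgeR). The log2 fold change of Plxnb3 was -6.22 with the replicate block (adjusted p = 0.0347) and -6.19 without dopaminergic replicate 1 (0.0133), and the adjusted p was 0.109 in a fit of all 15 libraries. Sema6a, a transmembrane semaphorin that binds A-class plexins, stood at 15.9, 29.5, 24.3 and 51.7 CPM against 122, 98.7, 115 and 116 CPM. Every dopaminergic library was lower, and the log2 fold change was -1.92 (SE of 0.34 and adjusted p = 0.0067 from edgeR).

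Sema6d, a related semaphorin and the most abundant of the class, stood at 242, 249, 252 and 459 CPM against 146, 161, 133 and 196 CPM without overlap (0.90 ± 0.26 in log2, SE, with adjusted p = 0.0522). Sema6d passed in 10 of 19 alternatives, among them the replicate block (adjusted p = 0.0461), the GC offset (0.0486), limma-voom (0.0403) and DESeq2 (0.00523), and the highest adjusted p was 0.135, without non-dopaminergic replicate 1. The co-receptor Nrp1 stood at 72.3, 108, 20.6 and 74.6 CPM against 123, 152, 108 and 212 CPM, where dopaminergic replicate 2 reached the lowest non-dopaminergic library (-1.13 ± 0.45 in log2, SE, with adjusted p = 0.151). Nrp2, its relative, overlapped widely, at 87.7, 92.3, 78.6 and 128 CPM against 119, 64.7, 97.8 and 159 CPM (adjusted p = 0.74). Sema3a, a secreted ligand of Nrp1, stood at 21.0, 0, 0.845 and 0 CPM in dopaminergic nuclei, against 10.8, 8.04, 6.21 and 10.6 CPM in non-dopaminergic nuclei. In 2 dopaminergic libraries it had no counts, and in replicate 1 it was above all other food-trained libraries (-0.73 in log2, adjusted p = 0.869). Without that library the log2 fold change of Sema3a was -5.03 (adjusted p = 0.12), with the replicate block it was -5.42 (0.318), and with limma-voom Sema3a was called lower (-5.83, adjusted p = 0.0333). Sema3c, a secreted semaphorin that attracts midbrain dopaminergic axons, stood at 16.9, 34.5, 25.4 and 10.2 CPM against 14.7, 16.0, 13.6 and 24.8 CPM (adjusted p = 0.749). Sema3f, a ligand of Nrp2, stood at 12.8, 18.1, 7.56 and 13.5 CPM against 5.78, 7.08, 15.5 and 14.9 CPM (adjusted p = 0.85). The groups overlapped for both ligands. Sema7a, which is anchored in the membrane, stood at 16.2, 71.8, 5.87 and 23.9 CPM against 27.1, 9.28, 35.7 and 42.7 CPM (adjusted p = 0.996). Its receptor Plxnc1 stood at 50.2, 111, 39.4 and 84.3 CPM against 48.9, 47.9, 50.3 and 52.3 CPM (adjusted p = 0.41). For Sema7a and Plxnc1 the spread among dopaminergic libraries was wider than the difference between the groups.

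**Figure D2:**
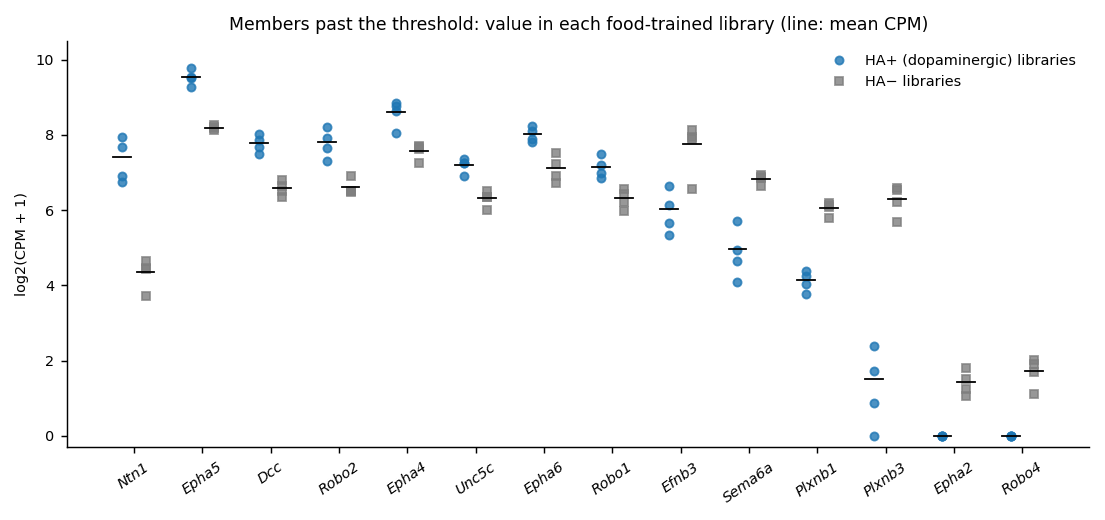
Log2(CPM + 1) of the 14 members past the threshold in each of the 4 HA-positive (circles) and 4 HA-negative (squares) libraries of food-trained mice, with lines at the mean CPM. The groups are apart for every gene shown except Efnb3, where a non-dopaminergic library at 93.6 CPM lies under a dopaminergic one at 98.9 CPM.

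Oligodendrocyte, astrocyte and microglia markers had lower sums in the dopaminergic libraries, though not every marker was lower. Summed oligodendrocyte markers were 1800 to 2870 CPM in the dopaminergic and 9630 to 23100 CPM in the non-dopaminergic libraries, with 8 of 10 genes called lower. Astrocyte markers summed to 798 to 1000 against 1710 to 3250 CPM (4 of 8 called lower), and microglia markers to 568 to 1100 against 1910 to 4200 CPM (6 of 8 called lower). The astrocyte markers Aldh1l1 and Gfap had log2 fold changes of 0.518 and 0.00978. Oligodendrocyte precursor markers summed to 114 to 228 against 296 to 393 CPM with 0 of 6 called. Of these, C1ql1 and Lhfpl3 had log2 fold changes of 0.941 and 0.335. No marker of these lists or of the vascular list was at 0 in all food-trained dopaminergic libraries. Vascular markers, relevant to Robo4 and Epha2, summed to 5.7, 7.99, 10.8 and 174 CPM in the dopaminergic libraries, against 107 to 141 CPM, and 0 of 8 were called by edgeR. In all dopaminergic libraries but replicate 4 these markers lay under every non-dopaminergic library, while Robo4 and Epha2 were at 0 in all 4. The part of these cell types in the lower members was not tested. Of the other neurons, GABA markers summed to 163 to 219 against 191 to 259 CPM and glutamate markers to 162 to 641 against 370 to 638 CPM.

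The other dopaminergic groups, which the test did not use, are given for the called members. Ntn1 stood at 86.2 to 178 CPM at maintenance and 104 to 166 CPM at abstinence, above the 24.1 CPM of the highest non-dopaminergic library. Epha5 (595 to 708 and 617 to 688 CPM), Epha4 (385 to 557 and 266 to 335), Epha6 (245 to 324 and 206 to 249), Robo1 (125 to 227 and 111 to 210) and Robo2 (172 to 283 and 166 to 217) likewise lay above all 4 non-dopaminergic libraries in all 11 dopaminergic ones. Dcc stood at 106 to 209 CPM at maintenance, where 1 library reached into the non-dopaminergic range of 79.8 to 110 CPM, and at 121 to 181 CPM at abstinence, above it. Unc5c (78.0 to 127 and 77.2 to 112 CPM) reached into the non-dopaminergic range of 63.6 to 89.3 CPM at both stages. Plxnb1 (14.5 to 25.0 and 7.85 to 30.8 CPM), Plxnb3 (0 to 24.6 and 0 to 6.90 CPM) and Sema6a (52.4 to 78.4 and 31.0 to 79.0 CPM) stayed under all non-dopaminergic libraries. Efnb3 stood at 25.7 to 75.4 CPM at maintenance, under the non-dopaminergic range of 93.6 to 278 CPM, and at 67.4 to 119 CPM at abstinence, where it overlapped. Robo4 was at 0 in all 11 dopaminergic libraries, and Epha2 was at 0 in 10 of them and at 5.43 CPM, above every non-dopaminergic library, in maintenance replicate 2. These levels are a description with no test of their own, and the non-dopaminergic nuclei came from the food-trained stage alone.

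**Figure D3:**
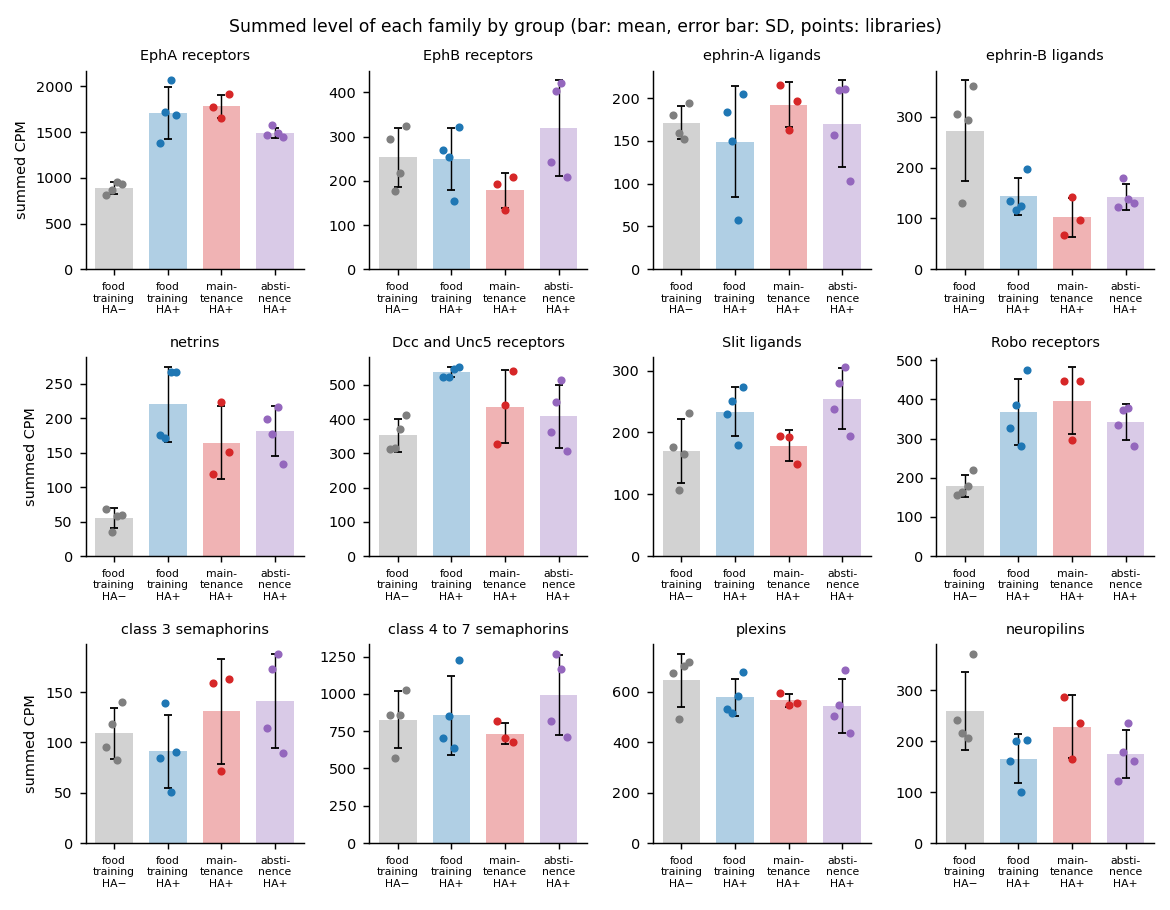
Summed CPM of each of the 12 families in the 4 groups, as bars at the mean with error bars of 1 SD and a point for each library. EphA receptors, Robo receptors and netrins are higher in every HA-positive group than in the HA-negative group, with 1711, 367 and 220 CPM on average against 891, 180 and 55.4 CPM after food training.

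The members called higher had in common that they are long genes. Their genomic length ran from 148 to 1560 kb with a median of 669 kb, against 21.0 kb for the members called lower, 60.9 kb for all members tested and 20.4 kb for all genes tested. Robo2 spanned 1555.5 kb, Dcc 1097.6 kb, Robo1 1020.0 kb and Epha6 969.5 kb. Of the 32 members of at least 100 kb, 8 were called higher and 1, Sema6a, lower, while 5.12% of the 2326 genes of that length were called higher and 10.2% lower. Of the 15 members of at least 300 kb, 6 were called higher, against 7.17% of 544 genes. Both lengths were chosen after the values were seen. Transcripts of the called higher members had a median of 45.0% GC against 56.4% for those called lower, and with an offset for GC content in each library 15 members passed, among them all 14.

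**Figure D4:**
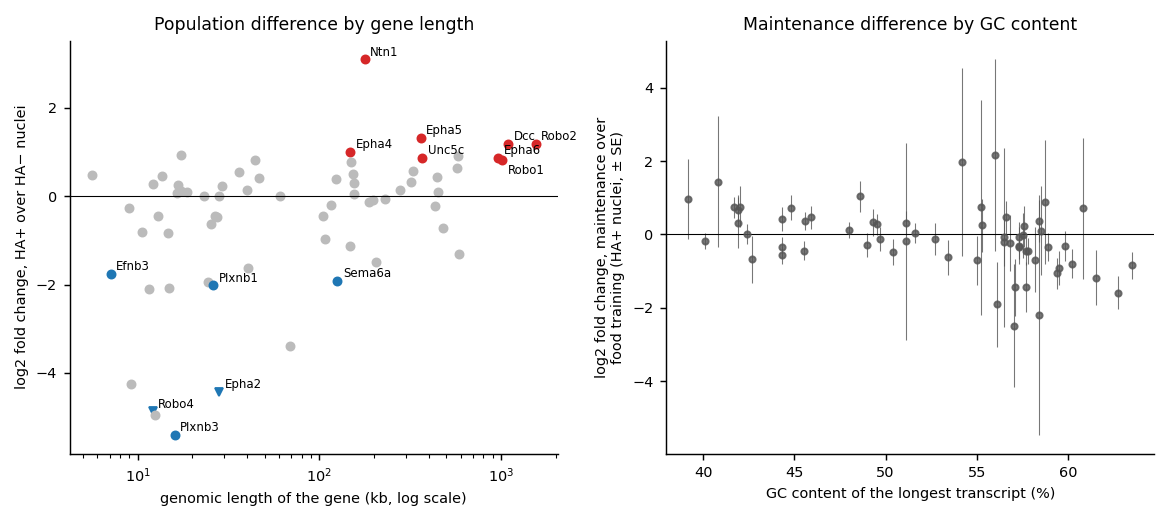
Left, log2 fold change of each member tested between HA-positive and HA-negative nuclei against the genomic length of its gene on a log axis, with the 8 genes called higher in red, the 6 called lower in blue and triangles for lower bounds. Right, log2 fold change at maintenance against food training (bars of 1 SE, without Epha8, whose fold is a bound) by transcript GC content, where the Spearman rho over 63 members was -0.492.

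Further genes of the pathway were taken from a list of 68 co-receptors, other ligands and intracellular effectors. Of the 66 tested, 11 (16.7%) passed between the populations, against 12.8% of all genes. Those higher were 4 (6.06%, against 3.63% of all genes) and those lower were 7 (10.6%, against 9.17%). The higher ones were cell surface proteins. Cntn1, a contactin, had 1500 ± 222 against 648 ± 154 CPM (1.19 ± 0.23 in log2, SE, and adjusted p = 0.00872 from edgeR). Chl1, an adhesion molecule that acts with neuropilin, had 607 ± 119 against 238 ± 41.0 CPM (1.33, SE 0.22, adjusted p = 0.0067). Flrt3, which modulates Robo and Unc5 signalling, had 483 ± 117 against 144 ± 54.7 CPM (1.73, SE 0.31, adjusted p = 0.00677), and Rgmb, a ligand of neogenin, had 115 ± 27.5 against 58.1 ± 7.72 CPM (0.96, SE 0.23, adjusted p = 0.022). Among the lower ones were 2 proteins of myelinated axons, Cntn2 with 136 ± 15.4 against 410 ± 76.8 CPM (-1.62 ± 0.20 in log2, SE, and adjusted p = 0.00409 from edgeR) and Nfasc with 264 ± 86.6 against 605 ± 52.6 CPM (-1.22, SE 0.24, adjusted p = 0.00895). The other 5 lower genes encode proteins inside the cell: Chn2 (-1.49), Ptk2 (-1.25), Enah (-0.75), Ablim1 (-1.28) and Mical3 (-1.26), with edgeR adjusted p of 0.0187, 0.0311, 0.0326, 0.0386 and 0.0404. Between stages 0 of its 66 genes passed with edgeR, while 10 (15.2%, against 11.6% of all genes) had an unadjusted p under 0.05 for maintenance against food training, 1 (1.52%, against 4.3%) for abstinence against food training and 8 (12.1%, against 9.92%) for abstinence against maintenance.

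The comparisons between stages asked what differs in dopaminergic nuclei after cocaine and after abstinence. Epha8 was the member that passed with edgeR, and its maintenance libraries were the low ones. In the fit of the 11 dopaminergic libraries, 63 members were among the 19060 genes tested. For maintenance against food training 1 member passed, as lower (0.131% of all genes passed, 0.00525% as higher and 0.126% as lower) and 7 (11.1%) had an unadjusted p under 0.05, where the share over all genes was 11.6%. For abstinence against food training 0 members and 0 of all genes (0%) passed with edgeR, and 4 members (6.35%) had an unadjusted p under 0.05, where the share over all genes was 4.3%. For abstinence against maintenance 1 member passed, as higher (0.178% of all genes passed, 0.168% as higher and 0.0105% as lower) and 8 (12.7%) had an unadjusted p under 0.05, where the share over all genes was 9.92%. In the F-test over the 3 stages Epha8 was the member called (0.0839% of all genes). The median log2 fold change of the members was -0.12 at maintenance and 0.15 at abstinence, each against food training, and over all genes it was -0.01 and 0.04. The sign of both member medians depended on the setting. At maintenance it was 0.0494 with the GC offset and 0.0787 without food-trained replicate 4. At abstinence it was -0.0037 without food-trained replicate 3 and -0.0159 without abstinence replicate 3. The DESeq2 test called 0 members and 145 genes for abstinence against food training, 2 members and 992 genes for maintenance against food training, and 4 members and 792 genes for abstinence against maintenance. These comparisons share libraries, and each is given on its own. Oligodendrocyte markers summed to 1190 to 1760 CPM at maintenance, under the 1800 to 2870 CPM after food training, and to 1200 to 2060 CPM at abstinence. Of that list Olig1 had group means of 32.9 CPM after food training, 0.0688 CPM at maintenance and 38.2 CPM at abstinence. Astrocyte (765 to 964 against 798 to 1000 CPM) and microglia markers (575 to 1210 against 568 to 1100 CPM) overlapped between maintenance and food training. The part of these cell types in the stage differences was not tested.

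Epha8 (chr4:136929419-136956859), an Eph receptor for ephrin-A ligands with low levels in these nuclei, stood at 6.57, 16.0, 9.66 and 8.09 CPM after food training, at 0 counts in all 3 maintenance libraries, and at 20.3, 2.15, 12.0 and 21.1 CPM at abstinence. No maintenance library reached any library of the other stages. Against a floor of 3 counts per library it was at least 134-fold lower at maintenance than after food training (edgeR adjusted p = 0.0184) and at least 185-fold higher at abstinence than at maintenance (edgeR adjusted p = 0.0168). This floor covers counting error only. In these libraries 16 members, Epha8 included, had 0 counts in a dopaminergic library and over 100 in another. The adjusted p for any difference was 0.0453. In non-dopaminergic nuclei Epha8 stood at 12.1, 4.41, 19.5 and 18.7 CPM, and the lowest of these was replicate 2, whose GC slope is close to those of the maintenance libraries. With a GC offset the adjusted p for Epha8 was 0.0328 and 0.0237, so the calls of both comparisons with maintenance held, as they did without food-trained replicate 3 (0.0292 and 0.0237). The call for any difference was lost with the GC offset. The calls against maintenance were lost with a term for the 4 libraries with the steepest negative GC slopes (0.259 and 0.172). No label names these as a batch, all 3 maintenance libraries are among them, and only non-dopaminergic replicate 2 sets the term apart from the stage. These calls were also lost with limma-voom (0.182 and 0.129) and in fits of the compared groups alone (0.205 and 0.0675). They were lost with the replicate block too, with or without the GC offset. The same was seen without maintenance replicate 1 (0.0797 and 0.0502) or 3 (0.0795 and 0.0712) and without abstinence replicate 1 (0.0535 and 0.0575) or 3 (0.0507 and 0.0555), and the call against food training was lost without food-trained replicate 4 (0.0508). The test for any difference did not call Epha8 in any fit that left out a library.

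The members next in order of p did not pass with edgeR, and some passed with DESeq2. Unc5a, a netrin receptor, stood at 13.0, 33.5 and 18.8 CPM at maintenance, against 48.2, 78.4, 69.7 and 64.7 CPM after food training and 32.3, 75.9, 108 and 44.5 CPM at abstinence. Its maintenance libraries lay under all food-trained ones (-1.59 ± 0.44 in log2, SE, and adjusted p = 0.219 from edgeR). With DESeq2 the adjusted p of Unc5a was 0.0127 for this comparison and 0.0206 for abstinence against maintenance. In non-dopaminergic replicate 2 it stood at 23.1 CPM, against 60.6 to 99.8 CPM in the other non-dopaminergic libraries. With the term for steep GC slopes its log2 fold change was 0.16. Ephb6, an Eph receptor without kinase activity, stood at 33.5, 42.7 and 73.1 CPM at maintenance, 133, 114, 44.0 and 124 CPM after food training and 140, 134, 191 and 70.4 CPM at abstinence (1.42 ± 0.43 in log2, SE, for abstinence against maintenance, and adjusted p = 0.302 from edgeR, 0.0347 from DESeq2). It too was lowest in replicate 2 among the non-dopaminergic libraries, at 32.5 CPM against 76.6 to 136 CPM, and its difference changed sign with that term (-0.25). Epha7 was high at maintenance, with 265, 154 and 229 CPM against 126, 143, 98.4 and 151 CPM after food training, and the groups did not overlap (0.74 ± 0.28 in log2, SE, and adjusted p = 0.386 from edgeR). With a GC offset it was 0.47. The part of library quality in these differences was not tested.

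For abstinence against food training the lowest p belonged to Unc5c. It stood at 112, 77.2, 96.9 and 78.0 CPM at abstinence, under every food-trained library (119 to 164 CPM), and at 78.0, 92.8 and 127 CPM at maintenance. The difference was -0.69 ± 0.23 in log2 (SE, with adjusted p = 1 from edgeR). Efnb2, a transmembrane ephrin, stood at 25.2, 21.5, 45.0 and 40.7 CPM at abstinence, also under every food-trained library (47.3 to 71.1 CPM), and the log2 difference was -0.84 (SE of 0.33 and adjusted p = 1 from edgeR). Sema6a stood at 49.1, 76.6, 79.0 and 31.0 CPM at abstinence and 78.4, 52.4 and 56.2 CPM at maintenance, against 15.9 to 51.7 CPM after food training. It overlapped at abstinence and not at maintenance (log2 fold change 0.95 and 1.04, edgeR adjusted p = 1 and 0.396). Groups without overlap were found for 3 of 63 members between abstinence and food training (1 higher and 2 lower, 2.37% and 0.955% over all genes). Between maintenance and food training there were 5 such members (3 higher and 2 lower, 4.29% and 4.21%). Between abstinence and maintenance there were 9 (8 higher and 1 lower, 7.56% and 4.57%). The member that was lower at abstinence than at maintenance was Epha4, at 298, 335, 266 and 306 CPM against 549, 385 and 557 CPM (-0.73 ± 0.25 in log2, SE, and adjusted p = 0.385 from edgeR, 0.0399 from DESeq2).

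**Figure D5:**
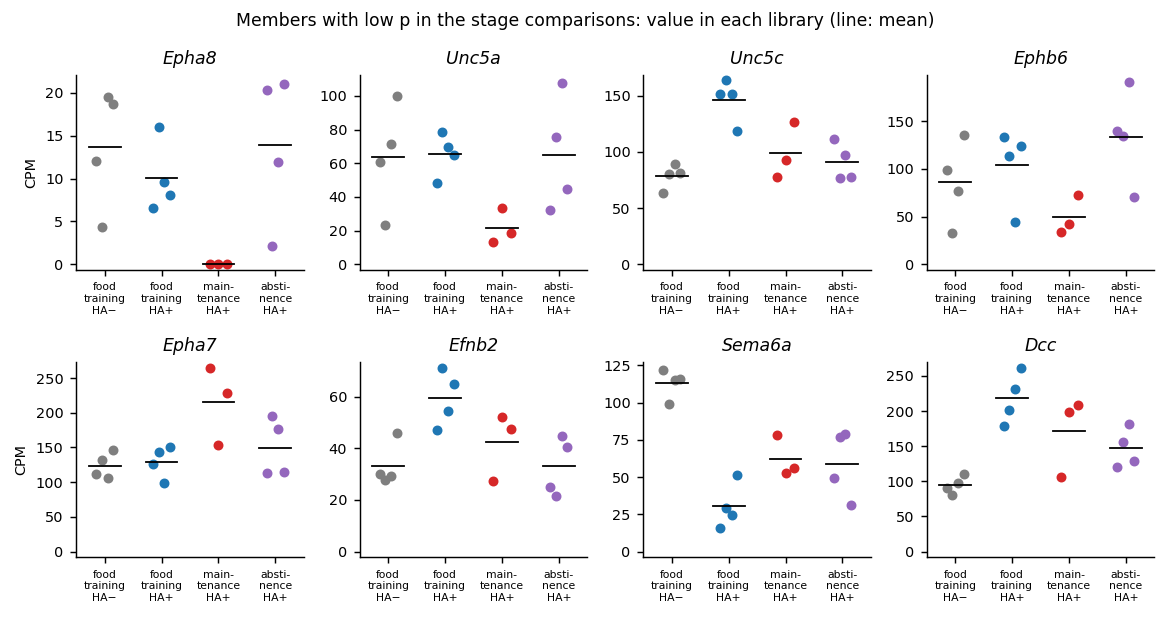
CPM of 8 members with low p in the stage comparisons, with a point for each library and a line at the group mean, in HA-negative nuclei after food training and HA-positive nuclei at the 3 stages. Epha8 is at 0 in all 3 maintenance libraries, and Unc5c and Efnb2 lie under the food-trained HA-positive range at abstinence.

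Members with GC-rich transcripts had lower log2 fold changes at maintenance than members with GC-poor ones. The Spearman rho between the log2 fold change against food training and transcript GC was -0.492 over 63 members and -0.219 over 16251 genes, and for abstinence against maintenance it was 0.437 and 0.252. For abstinence against food training it was -0.01 and 0.02. The members share libraries, so these are descriptions across genes. Members had a median transcript GC of 56.0%, against 49.6% over all genes tested, and Epha8 (61.3%), Unc5a (62.7%) and Ephb6 (59.4%) were above both. The spread between replicates differed with the group and the level. The median SD of log2 CPM over the 68 members was 0.75 after food training, 0.51 at maintenance and 0.52 at abstinence, and 0.43 in non-dopaminergic nuclei. Over the 25 members with a mean log2 CPM above 6 after food training it was 0.34.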

How the data were processed

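Nuclear RNA of sorted nuclei was measured in 15 libraries, prepared with an amplifying low-input kit per the labels' protocols. The authors deposited raw counts per gene for all libraries, and a second table held the same counts for 10 of the 11 dopaminergic libraries, without food-trained replicate 3, and was not used. The submitters' processing notes name Trim Galore 0.6.7, cutadapt 1.18, STAR 2.7.10a, StringTie 2.1.5 and DESeq2 1.38.3 with mm10 (GRCm38). The settings of alignment and counting, strand included, are not given in the sources used here. Reads carried no molecular identifiers that the labels name, so floors cover counting error only.

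From the counts, genes were filtered with filterByExpr, scaled by TMM and tested with edgeR 4.0.16 (quasi-likelihood F-test, two-sided, R 4.3.3) over all genes. Benjamini-Hochberg adjusted p under 0.05 counted as called. The populations were compared in 8 libraries and the stages in 1 fit of 11. The gene families, and so the members, and the lists were chosen with earlier results of these data known. Within the families every gene was taken by its symbol. Full statistics were given for members past the threshold, the 3 with the lowest p in each stage comparison, the 5 highest per kb in food-trained dopaminergic nuclei, and 14 known from dopamine neuron wiring. Dcc, Robo1, Robo2, Slit2, Ntn1, Unc5c, Epha5, Nrp1, Nrp2, Sema3a, Sema3c, Sema3f, Sema7a and Plxnc1 made up the latter. Sema6b, Sema4c, Unc5b, Unc5d and other members outside the rule have levels or tests only in part. Lengths and GC come from GENCODE M21, promoters from RefSeq. A gene with 0 counts in a group got a bound at 3 counts per library. The scripts were first checked on simulated counts, from which no value is reported. Alternatives covered size factors, filters, DESeq2 1.42.0, limma 3.58.1 (voom), a replicate block, a GC offset, a term for the 3 maintenance libraries and non-dopaminergic replicate 2 (grouped by GC slope, not by a label), other sets of libraries and each replicate left out; leaving out food-trained dopaminergic replicate 3 and non-dopaminergic replicate 2 together was chosen after seeing the data.

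Replicate numbers paired the food-trained populations: over 8535 genes the deviations of same-numbered libraries from their group means correlated at 0.116, 0.127, 0.262 and 0.242, each highest with its own number. The pairing comes from the data, not from a label that names shared mice. Between stages the numbers did not pair libraries.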

Additional observations from a re-analysis of the deposited data

Results flagged for a closer look

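In 7 of 83 groups of 4 libraries, over the members given in full, the highest or lowest library stood far from the rest, where chance alone gives about 1 in 20. Efnb2 stood at 45.9 CPM in non-dopaminergic replicate 4, with the others at 27.7 to 29.9. Robo2 stood at 120 CPM in the same library, with the others at 87.8 to 90.8. Epha4 was low in non-dopaminergic replicate 1, at 151 CPM against 197 to 206. Efnb3 reached 119 CPM in abstinence replicate 2, where the other abstinence libraries held 67.4 to 71.9. Nrp1 stood at 98.9 CPM in abstinence replicate 3, with the others at 65.5 to 71.1. Sema3a stood at 21.0 CPM in food-trained dopaminergic replicate 1, with the others at 0 to 0.845. Sema6d stood at 459 CPM in food-trained dopaminergic replicate 4, with the others at 242 to 252.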

How the results depend on the processing

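Of 981 values of single members under the alternatives, 886 kept their direction and side of the threshold, 47 lost a call, 19 gained one and 29 changed sign. Members called between the populations numbered 10 to 20 under the alternatives (from 12 higher and 8 lower with DESeq2 to 7 higher and 11 lower with limma-voom) and 11 to 17 with a replicate left out, while all genes called numbered 1643 with at least 10 counts in every library (916 higher, 727 lower), 3883 with DESeq2, 4266 with limma-voom, 775 with the replicate block, 837 with the block and GC offset, and 1900 to 3740 with a replicate left out. Maintenance against food training gave 0 members with the strict filter, limma-voom, the block, the block with GC offset, the term for steep GC slopes (slope term) and only the compared groups, 2 with DESeq2 and 0 to 1 with a replicate left out. The strict filter removes Epha8, which is at 0 at maintenance, before testing, so it could not be called there. All genes there numbered 109 (strict filter), 992 (DESeq2), 9 (limma-voom), 0 (block), 1 (block with GC offset), 0 (slope term), 1 (compared groups) and 5 to 78 with a replicate left out. Abstinence against food training gave 145 genes with DESeq2. Abstinence against maintenance gave 0 members under the same 6 settings, 4 with DESeq2 and 0 to 1 with a replicate left out, and over all genes 22 (upper quartile), 69 (strict filter), 792 (DESeq2), 2 (block), 2 (block with GC offset), 15 (15 libraries), 1 (slope term), 22 (compared groups) and 6 to 73 with a replicate left out. Any difference among stages gave 0 members with the strict filter, limma-voom, the block, the GC offset, both, the slope term and each replicate left out, and over all genes 41 (strict filter), 339 (DESeq2), 0 (block), 5 (GC offset), 0 (both), 9 (15 libraries), 0 (slope term) and 1 to 23.

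Signs changed between the populations with no filter for Sema7a (-0.03) and Unc5a (-0.03), with limma-voom for Sema3c (-0.06), Sema7a (-0.47) and Unc5a (-0.11), with the block for Sema7a (-0.51), with the GC offset for Epha7 (-0.04), and with both for Epha7 (-0.05) and Sema7a (-0.39). With a replicate left out, signs changed within the ranges of Epha7 (-0.05 to 0.18), Sema3c (-0.01 to 0.54), Sema7a (-0.93 to 0.38), Unc5a (-0.28 to 0.30), Epha10 (-0.17 to 0.78), Ephb6 (-0.03 to 0.55) and Nrp2 (-0.40 to 0.02), and without both libraries that stood apart for Epha10 (-0.31) and Unc5a (-0.27). With the slope term, maintenance against food training changed sign for Ephb6 (0.62), Sema6b (0.81) and Unc5a (0.16), and abstinence against maintenance for Ephb6 (-0.25), Sema4c (-1.34), Sema7a (-0.22), Slit2 (-0.13) and Unc5a (-0.16). The cause was not tested. Of the 68 members, 19 had 0 counts in a dopaminergic library, while the non-dopaminergic libraries, with 39306070 to 50174738 counts, had 0 to 1 members at 0 each.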
